A study of Homo sapiens with 11 samples.

Results

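AsPC-1 is a human pancreatic cancer cell line, and the comparison is between AsPC-1 cells given small interfering RNA (siRNA) against MYEOV and AsPC-1 controls. Every AsPC-1 count table of the series was taken: 3 MYEOV siRNA libraries and 2 control libraries, which is 5 of the 11 libraries, the other 6 being from the line PANC-1. The siRNA cells were collected 48 hours after a lipid-based transfection, and poly(A) RNA was sequenced. The protocol names 2 siRNAs against MYEOV, and the sources used here do not say which of them each library received. The controls are called wild type and untreated in the labels, while the protocol also describes a negative-control siRNA, so whether they were transfected is not settled. If they were not, the siRNA against MYEOV and transfection itself cannot be told apart. The design text speaks of a knockout, but siRNA degrades or blocks a transcript for a time and leaves the gene in place. Separate cultures are not mentioned for the libraries, so the spread behind the p-values may be technical in part or as a whole. That spread was small, with a coefficient of variation beyond counting noise of 2.77% in the edgeR fit. If the libraries share a culture, the p-values do not measure variation between cultures.

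MYEOV lies on chromosome 11 beside CCND1, in a stretch that is often amplified in carcinomas, and the function of its product is not well understood. An siRNA guide strand pairs along its whole length with the transcript it is designed for. The first bases of a guide, its seed, are also known to pair with 3' untranslated regions (3' UTRs) of other transcripts and to lower them, in the manner of a microRNA. Because RNA was taken from bulk cultures, fewer cells expressing a gene and less RNA of it per cell cannot be told apart.

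The libraries held 12127194 to 14456544 counts on genes, and 22050 to 22581 genes had a count. A gene was tested when it reached a CPM of 1 (counts scaled to a common library size and composition) in at least 2 of the 5 libraries, and 13527 genes did. It was called, and is said below to have risen or fallen, when the edgeR quasi-likelihood test gave a Benjamini-Hochberg adjusted p under 0.05 over all tested genes. The line carried its epithelial markers, with KRT8 at 9568, KRT18 at 2965 and KRT19 at 3056 CPM on average, and KRT7 at only 2.04 CPM. Of 12 fibroblast markers, PDGFRA was at 0 and only LUM and ACTA2 were high enough to test. Their summed level was 274 to 283 CPM in the controls and 97.4 to 101 CPM in the siRNA libraries, nearly all of it LUM. Summed leukocyte markers (29.2 to 30.5 CPM in the controls, 28.1 to 30.0 CPM after siRNA), with PTPRC, CD3E and MS4A1 at 0, and endothelial markers (17.1 to 17.8 and 19.7 to 20.6 CPM), with KDR and ERG at 0, rested mainly on LYZ and ENG. For acinar and islet cells, 8 of 10 markers were at 0.

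The siRNA libraries differed from the controls in 4771 genes, 35.3% of those tested. Of these, 2417 were higher in the siRNA libraries (17.9%) and 2354 lower (17.4%), and the median log2 fold change over all tested genes was -0.00. Most of the called changes were small: 883 of them reached 1.5-fold, and 92 rises and 161 falls reached 2-fold. Every siRNA library lay on one side of every control library in 4718 of the 4771 called genes. The test that calls a gene favours such separation. It is therefore not separate support for the calls, here or for the genes named below. With so many genes called, each count of list members below is to be read against 17.9% higher and 17.4% lower. DESeq2 called 3162 genes, and a test for changes beyond 1.2-fold called 1228 (552 higher, 676 lower). With 1 siRNA library left out, 4178 to 4412 genes were called. Fewer were called with 1 control left out, and what loss of power contributes was not tested.

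The sources used here do not say whether the counting used strand, and reads of a gene and of one overlapping it on the other strand then cannot be told apart. Of the tested genes, 26.3% overlap a gene on the other strand that reaches more than 10% of their own level. Among the genes named here these are CCND1, KRT8, KRT18, ACTA2, NPC2, ALYREF, RECQL, SPNS2, CA9, SLCO4A1-AS1, PTPN11, BRAF, JUNB, CLDN2, RPS29, NUDT21, PRKRA, POLA1, APEX1, OGG1, SEC61A1, PSMD5, COPS2 and NIP7, whose values are uncertain to that extent.

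**Figure D1:**
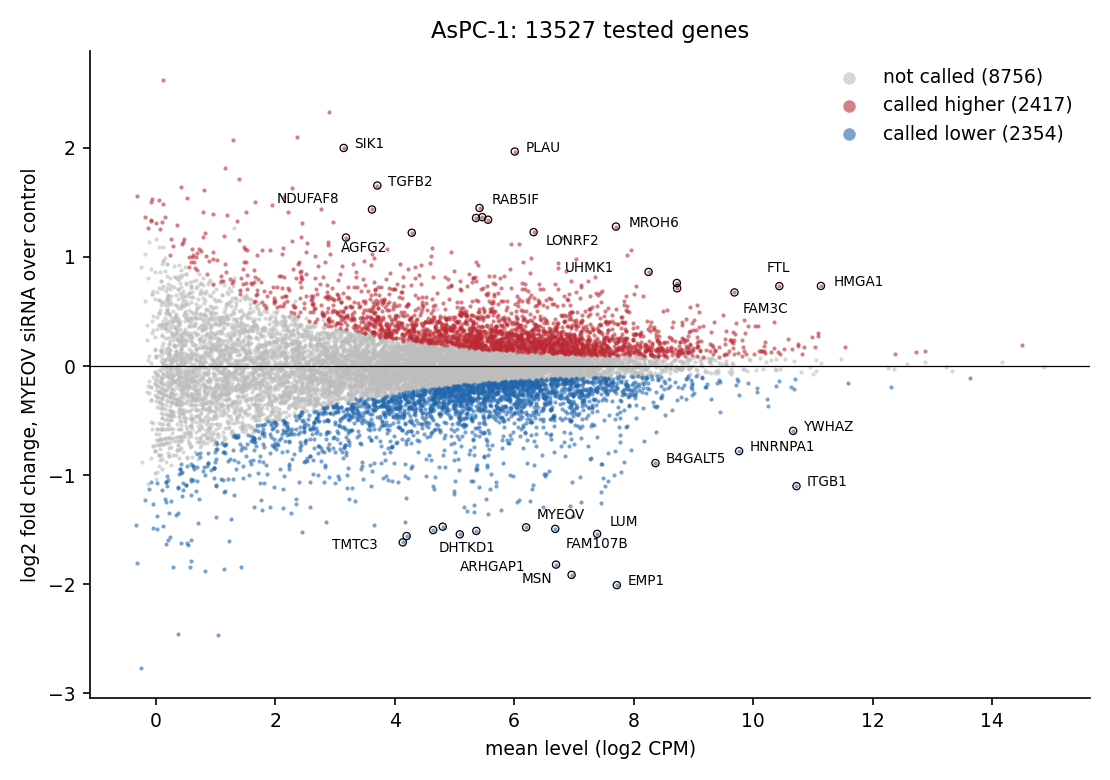
Log2 fold change (MYEOV siRNA over control, n = 3 and 2 libraries) against mean level in log2 CPM, 1 point per tested gene; red and blue points were called higher (2417) and lower (2354), and circles mark the genes with the largest fold or CPM changes. Abundant genes such as ITGB1, YWHAZ and HNRNPA1 lie well below 0, and HMGA1 and FTL lie above it.

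MYEOV itself (ENSG00000172927, chromosome 11, 69294138 to 69367726, plus strand, GRCh38 annotation) stood at 119 and 119 CPM in the controls and at 38.8, 46 and 43.6 CPM in the siRNA libraries. All 3 siRNA libraries were below both controls, with 35.9% of the control level left on average (by edgeR, log2 fold change -1.48, SE 0.06, and adjusted p = 6.75e-18). It was not the deepest fall: of the genes whose log2 CPM averaged 3 or more, 10 fell further. Of the 12 largest falls, 10 were in genes that carry 1 short word, CTCATGT, in an annotated 3' UTR, and the transcript of MYEOV holds the same word once, within its coding sequence in 2 of 3 protein-coding transcripts. The word was known from earlier work on these same data, so its link with the falls is a description.

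These sites show the word in MYEOV and in the genes whose falls lead the comparison, as 30 bases of the sense strand, 5′ to 3′, with the word in capitals (positions from the GRCh38 annotation of GENCODE 29).
MYEOV, coding sequence, chr11:69295610-69295639, plus strand: agggactcgttgCTCATGTtcacccggcag
EMP1, 3' UTR, chr12:13216614-13216643, plus strand: tgacatttatgtCTCATGTaatttgcatta
MSN, 3' UTR, chrX:65741245-65741274, plus strand: ctccttctctgtCTCATGTgtgctcttctt
ARHGAP1, 3' UTR, chr11:46677213-46677242, minus strand: tatttggtctttCTCATGTcccccactggt
TMTC3, 3' UTR, chr12:88197698-88197727, plus strand: acataaaaagtgCTCATGTatttgaatttt
FAM107B, 3' UTR, chr10:14520107-14520136, minus strand: ttctgattaatgCTCATGTatttctttatc
ITGB1, 3' UTR, chr10:32901458-32901487, minus strand: gccatggttttaCTCATGTgcaggttttga
The longest run shared with the MYEOV site, the word included, was 9 bases, in FAM107B and at the TMTC3 site, so these sites have little in common with it outside the word.

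Read as RNA, the word pairs with the seed ACAUGAG (bases 2 to 8), which 0 of 1736 mature human microRNAs in the RefSeq table have. The sources used here do not give the siRNA sequences, so whether a guide has this seed was not tested. An annotated 3' UTR exists for 11651 of the tested genes, and in 14.2% of these at least 1 transcript holds the word. The share was 28.0% among genes called lower and 10.2% among genes called higher, against 11.5% among genes not called. It grew with the depth of the fall, to 44.1% of 399 genes down by 1.5-fold or more and 56.9% of 123 genes down by 2-fold or more. Of the 68 genes up by 2-fold or more, 8.82% carry it. Genes with no copy had a median log2 fold change of 0.02, genes with 1 copy -0.09 and genes with 2 or more copies -0.14, and 45.0% of the last were called lower. Carriers have longer 3' UTRs (median 2778 bases with 1 copy, 1187 without), which by itself raises the odds of any word. Among genes with 3' UTRs of up to 804 bases, 41.7% of 127 carriers and 14.5% of 3757 other genes were called lower. From 2160 bases upwards, 32.0% of 1100 carriers and 15.5% of 2784 other genes were. Without all carriers, 2182 genes were called higher and 1755 lower, so most calls concern genes that lack the word. What the word contributes to any single fall was not tested.

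**Figure D2:**
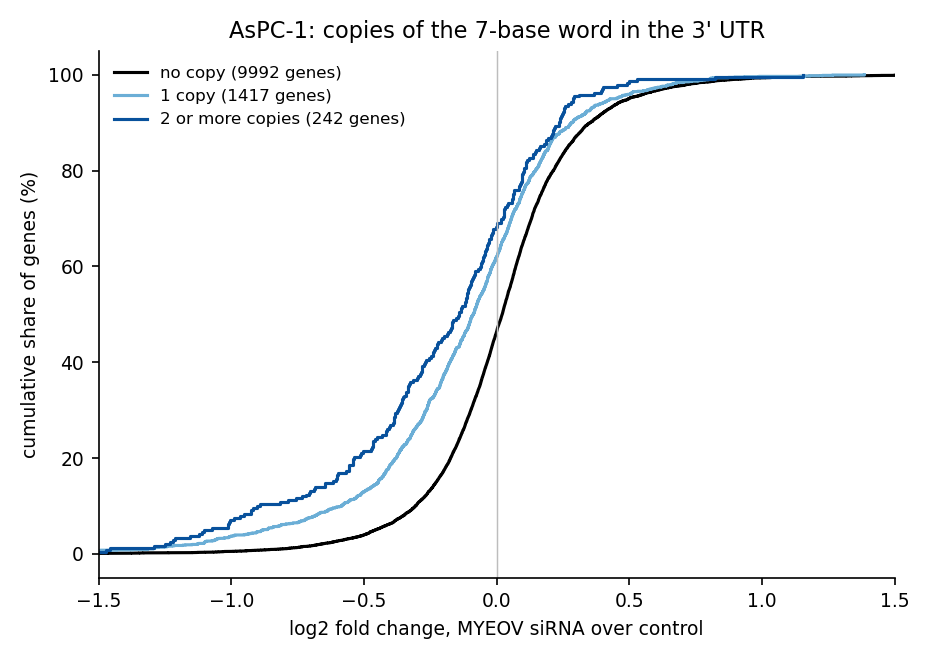
Cumulative share of genes (%) against log2 fold change (MYEOV siRNA over control) for tested genes with 0 (9992 genes), 1 (1417) or 2 or more (242) copies of the 7-base word in a 3' UTR. The curves for 1 and for 2 or more copies lie to the left of the curve for 0 copies over most of the negative range, with medians of -0.09, -0.14 and 0.02.

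The deepest falls included proteins of the cell membrane and its actin layer. EMP1, a four-span membrane protein of epithelia, stood at 379.8 and 387 CPM in the controls and at 90.1, 95.1 and 101 CPM in the siRNA libraries. MSN, or moesin, links actin filaments to membrane proteins, and read 224 and 221 CPM in the controls against 54.5, 57.1 and 65.5 CPM. ARHGAP1, which switches off CDC42 and RHOA, read 181 and 184 against 50.8, 52.9 and 51.2 CPM. In these 3 genes the siRNA libraries lay close together and far below both controls. ITGB1, the beta subunit shared by most matrix-binding integrins, had the largest loss in CPM of any gene changed by 1.5-fold or more, from 2546 and 2436 to 1102, 1155 and 1227 CPM (by edgeR, log2 fold change -1.10, SE 0.03, and adjusted p = 1.91e-19). Both groups were tight, with every siRNA library far below the lower control. YWHAZ, a 14-3-3 adaptor, fell to 66.2% and B4GALT5, which makes lactosylceramide, to 54% of control. HNRNPA1, a splicing regulator, fell to 58.2%, though it has many near-identical pseudogenes and its counts are uncertain to that extent.

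Metabolic and secreted proteins were also among them. LUM, the proteoglycan lumican, fell from 281 and 271 to 94, 96.9 and 94.2 CPM and carries no copy of the word. DHTKD1, a mitochondrial dehydrogenase of lysine breakdown, read 65.6 and 69.2 and then 23.3, 23.8 and 23.7 CPM, a fall as even across the siRNA libraries as that of LUM. TMTC3, PRUNE1, FAM107B, NPC2, ALYREF and RECQL completed the set, with log2 fold changes from -1.62 to -1.47. NPC2 carries cholesterol out of lysosomes, ALYREF hands spliced mRNA to the export machinery, and RECQL is a DNA helicase. Each of these 6 holds the word in its 3' UTR.

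Rises of 2-fold or more were fewer, 92 against 161 falls. PLAU, the urokinase that activates plasminogen at the cell surface, went from 23.6 and 23.3 CPM to 97.1, 89.9 and 87.7 CPM, a 3.91-fold rise (by edgeR, log2 fold change 1.97, SE 0.06, and adjusted p = 4.59e-19). The TGF-beta ligand gene TGFB2 stood at 5.18 and 6.19 CPM in the controls and at 19.1, 16.5 and 17.8 CPM after siRNA. All siRNA libraries were above both controls in each, with little spread between them. LONRF2, a RING finger protein, read 44.7 and 44 CPM in the controls and 105, 104 and 102 CPM after siRNA. MROH6, a HEAT-repeat protein of unknown role, read 111 and 114 and 266, 278 and 273 CPM. RNF11, SPNS2, AGFG2, CA9, RAB5IF, NDUFAF8 and SLCO4A1-AS1 rose by 1.18 to 1.45 on the log2 scale. RAB5IF and NDUFAF8 also spread between controls, at 24.3 and 17.1 CPM and 7.18 and 4.64 CPM. SIK1, a salt-inducible kinase, had the highest fold change of the set (2.00) and the widest spread, with 5.74, 11.5 and 20.0 CPM in the siRNA libraries against 2.56 and 3.75 CPM. LONRF2 was the only one of the 12 largest rises to carry the word.

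The 6 largest gains in CPM were abundant genes. HMGA1, an architectural chromatin protein, rose from 1662 and 1554 to 2642, 2736 and 2647 CPM, with each group tight. FTL, the ferritin light chain, rose from 992 and 994 to 1672, 1664 and 1615 CPM and has many pseudogenes, which can share its reads. FAM3C, ANO1, LARP1 and UHMK1 rose by 0.67 to 0.86 on the log2 scale. ANO1, a calcium-activated chloride channel, lies near MYEOV on chromosome 11. Of 13 tested genes of that neighbourhood, MYEOV among them, 2 rose and 6 fell, with CCND1 at -0.24 and CTTN at -0.27.

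**Figure D3:**
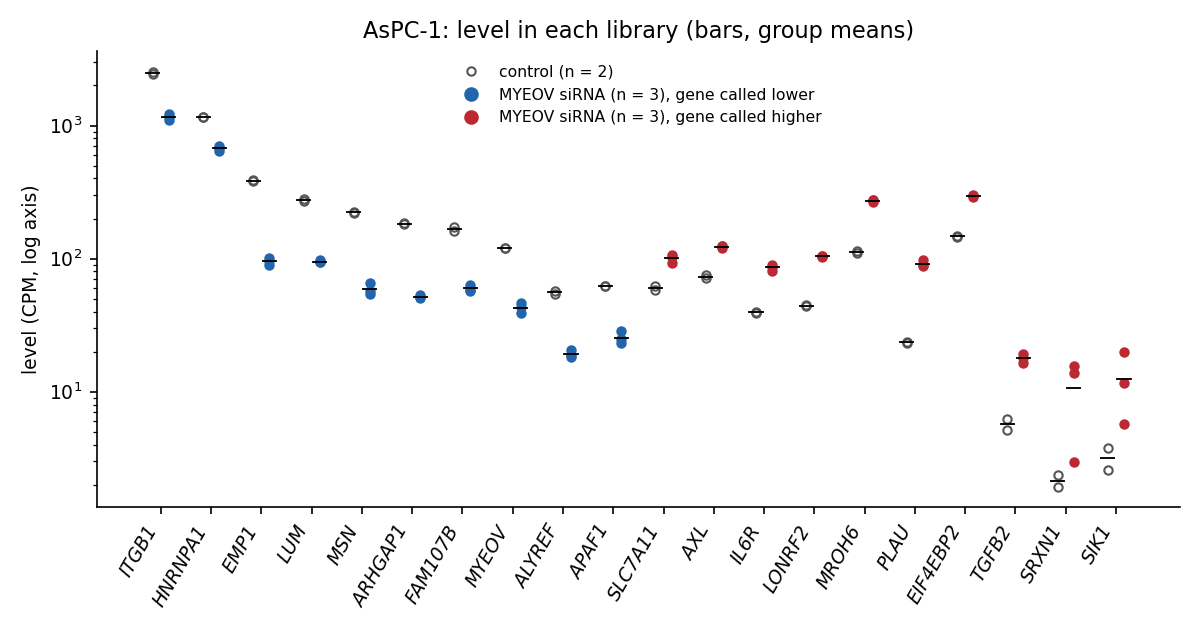
Level in CPM (log axis) of 20 genes in each AsPC-1 library: open circles are the 2 controls, filled circles the 3 MYEOV siRNA libraries, blue where the gene was called lower and red where called higher, and bars are group means. Groups do not overlap in any of the 20 genes, as in most called genes, though the first siRNA library of SRXN1 is close to the controls. SRXN1 and SIK1 show the widest spread between siRNA libraries.

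Integrins are pairs of alpha and beta subunits that join the matrix to actin through talin and kindlin. The fall of ITGB1 stood alone among beta subunits: 4 of 6 rose, ITGB6 by 0.59 and ITGB5 by 0.29. Of 7 tested alpha subunits 0 rose (1 without control 2) and 2 fell, ITGA3 (-0.32) and ITGAV (-0.23), the latter lost in 1 fit over all groups (edgeR adjusted p = 0.193). TLN1, the widely expressed talin, rose by 0.49 and its paralog TLN2 fell by 0.52 on the log2 scale. Matrix proteins went both ways. TNC, or tenascin C, rose from 144 and 156 to 313, 313 and 311 CPM, and NID1, which ties laminin to collagen IV, from 34.7 and 38 to 76.1, 83.9 and 76.5 CPM. Among laminin chains LAMC1 (0.39) was higher, and LAMB2 (-0.41), LAMA3 (-0.46) and LAMB3 (-0.25) were lower. In the urokinase system 4 members rose, PLAU and its receptor PLAUR (0.27) among them, and 5 of 11 fell. SERPINB5, or maspin, fell from 298 and 286 to 147, 144 and 149 CPM. S100A10 and ANXA2, which form a plasminogen-binding complex, fell by 0.30 and 0.19. They were part of 2 calcium-binding families that leaned down: 6 of 11 S100 genes fell and 0 rose (median log2 fold change -0.30), and 4 of 9 annexins fell. The 1 annexin called higher, ANXA3 (0.21), was not called when any single library was left out, nor by DESeq2.

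Regulators of actin, whose filaments shape the cell cortex, gave calls in both directions. CFL1, the actin-severing cofilin, fell by 0.42, ACTN1 by 0.40 and FLNA by 0.38, while GSN (0.38), LIMK1 (0.39) and WASF1 (0.67) rose. Within the family of moesin, RDX (0.34) rose. Over all actin regulators of assembly and turnover, 10 of 34 rose and 10 fell.

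Ligands and receptors leaned towards higher levels. Growth factor receptors take up signals at the membrane and pass them to RAS and ERK. Of 27 tested, 13 rose (48.1%) and 4 fell (2 without siRNA library 3), with a median log2 fold change of 0.20. DESeq2 called 12 rises and 2 falls of these receptors, and 7 rises and 1 fall passed the edgeR test beyond 1.2-fold. IL6R, the alpha receptor of interleukin 6, rose from 39.1 and 39.7 to 86.5, 89.5 and 81.1 CPM, and its signalling partner IL6ST by 0.71. AXL read 71.4 and 74.9 CPM in the controls and 124, 120.2 and 124 CPM after siRNA. EGFR, the most abundant of those named, rose from 712 and 699.5 to 931, 932 and 913 CPM. No siRNA library of these genes fell within the range of the controls, as in most called genes. Among ligands 8 of 16 rose, led by FGF18 (1.07) and CSF1 (0.96), and 4 fell, led by FGFBP1 (-0.75), a carrier of FGFs. Genes of ERK output and feedback leaned the same way, with 14 rises (58.3%) among 24 and a median log2 fold change of 0.23. They also had 6 falls, in which MYEOV itself is counted. The RAS, RAF, MEK and ERK list itself was balanced, with 7 rises and 6 falls among 22. The falls included NRAS (-0.19), PTPN11 (-0.36), SOS1 (-0.26), SOS2 (-0.32) and BRAF (-0.28), and 4 of the 6 carry the word. Without control 1 the falls were 3, PTPN11 and SOS1 among them, and NRAS, SOS2 and BRAF were not called.

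TGF-beta ligands are secreted in a latent form held by LTBP proteins, bind paired type I and type II receptors and signal through SMADs. Among ligands and latency proteins 7 of 13 rose (53.8%) and 2 fell, with TGFB2 first, LTBP2 at 0.61 and BMP4 at 0.46. Type I receptors rose, ACVR1B by 0.70 and TGFBR1 by 0.58, whereas the type II receptor TGFBR2 fell from 449 and 429 to 326, 320.1 and 319 CPM. The receptor-activated SMADs moved apart in the same way: SMAD2 rose from 27.3 and 23.4 to 33.6, 34.9 and 36.3 CPM and SMAD3 fell from 217 and 224 to 156, 161 and 151 CPM. TGFBR2, SMAD2 and SMAD3 all hold the word in a 3' UTR, so carriers went both ways here. Response genes of the pathway counted 7 rises, ID2 (0.82) among them, and 2 falls, JUNB (-0.45) and ID1 (-0.36), among 12.

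Wnt signals are received by Frizzled and LRP proteins, amplified by LGR receptors and damped by the ligases ZNRF3 and RNF43, which are themselves Wnt targets. Receptors and transducers gave 13 rises (48.1%) and 4 falls among 27. ZNRF3 rose from 10.4 and 12.1 to 15.6, 18.5 and 16 CPM and RNF43 by 0.46, with FZD6 at 0.47. DKK1, a secreted inhibitor of the pathway, fell from 185 and 177 to 81.7, 82 and 96.2 CPM, and LGR4, the receptor for R-spondins, from 279 and 284 to 170.4, 179 and 173 CPM. Of 10 tested targets 6 rose, EPHB2 (0.81), NKD1 (0.50) and CD44 (0.40) among them, and 1 fell, TNFRSF19. That fall was not called without control 2 (edgeR adjusted p = 0.0525). In the Notch list HES1 fell from 33.2 and 34 to 26.6, 27.8 and 27.3 CPM, while the partner factor RBPJ (0.41), the receptor NOTCH2 (0.43) and LFNG (0.49), which modifies receptors, rose.

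Junction and lineage genes of the epithelium gave calls in both directions. Tight junction genes gave 11 rises and 6 falls among 23, with the pore-forming claudin CLDN2 rising from 14.4 and 13.5 to 26.7, 25.6 and 27.6 CPM. The polarity kinase PRKCI fell from 67.1 and 63.5 to 33.5, 35.5 and 34.2 CPM and its partner PARD6B rose by 0.81. EPCAM (0.36) and CDH1, or E-cadherin (0.23), rose, and the desmosomal cadherin DSG3 (-0.93) fell. CEACAM1 fell from 143 and 134 to 56.7, 54.6 and 58.8 CPM, and MUC5B, a gel-forming mucin, fell as well (-0.48). Among 16 lineage factors 4 fell, NR5A2 (-0.60) and HNF4A (-0.55) included, and 2 rose, of which 1 was called without control 1, without control 2 or without siRNA library 2. KLF13, a zinc finger repressor, fell from 186 and 193 to 72.6, 80.5 and 79.9 CPM, the only fall called among 10 KLF genes (2 were called without siRNA library 1).

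NRF2, encoded by NFE2L2, switches on genes that make glutathione, recycle thioredoxin and store iron, and KEAP1 marks it for destruction. Of 37 tested genes of this list 23 rose (62.2%, against 17.9% of all genes) and 2 fell (1 when any single library was left out), with a median log2 fold change of 0.18. In the edgeR test beyond 1.2-fold, 5 of the rises passed. The cystine importer SLC7A11 rose from 62.3 and 57.8 to 107, 104 and 92.8 CPM. GCLC, the catalytic subunit of the enzyme that begins glutathione synthesis, rose from 92.8 and 89.9 to 139.6, 137 and 139.9 CPM. HMOX1, which degrades haem, rose by 0.58, and TXNRD1, thioredoxin reductase, by 0.27. SRXN1, or sulfiredoxin, had the highest fold change of the list (2.33) but its first siRNA library was close to the controls, with 2.95, 13.7 and 15.5 CPM after siRNA against 1.93 and 2.36 CPM. NQO1, the usual marker of the pathway, rose only by 0.11 and NFE2L2 itself by 0.16. The call of NQO1 was lost when either control was left out (edgeR adjusted p = 0.101 and 0.0688). Leaving out 1 library at a time gave 16 to 23 rises in this list, with the fewest without control 2.

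Iron is taken up through transferrin receptor, stored in ferritin and exported by ferroportin. Of 16 genes of uptake and storage 9 rose, FTL first, with the heavy chain FTH1 going from 1889 and 1985 to 2352, 2432 and 2263 CPM. Ferroportin, SLC40A1, fell from 77.8 and 83.7 to 66.3, 58.1 and 60.4 CPM. FTL, FTH1 and HMOX1 are counted in both the redox and the iron list. Assembly of iron-sulfur clusters had 8 falls and 4 rises (2 without control 1) among 26. CIAO2A, of the cytosolic targeting complex, fell from 47.4 and 46.6 to 21.5, 21.2 and 21 CPM and ISCA1 from 24.9 and 29.2 to 13.4, 13.9 and 15.4 CPM, both carriers of the word.

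**Figure D4:**
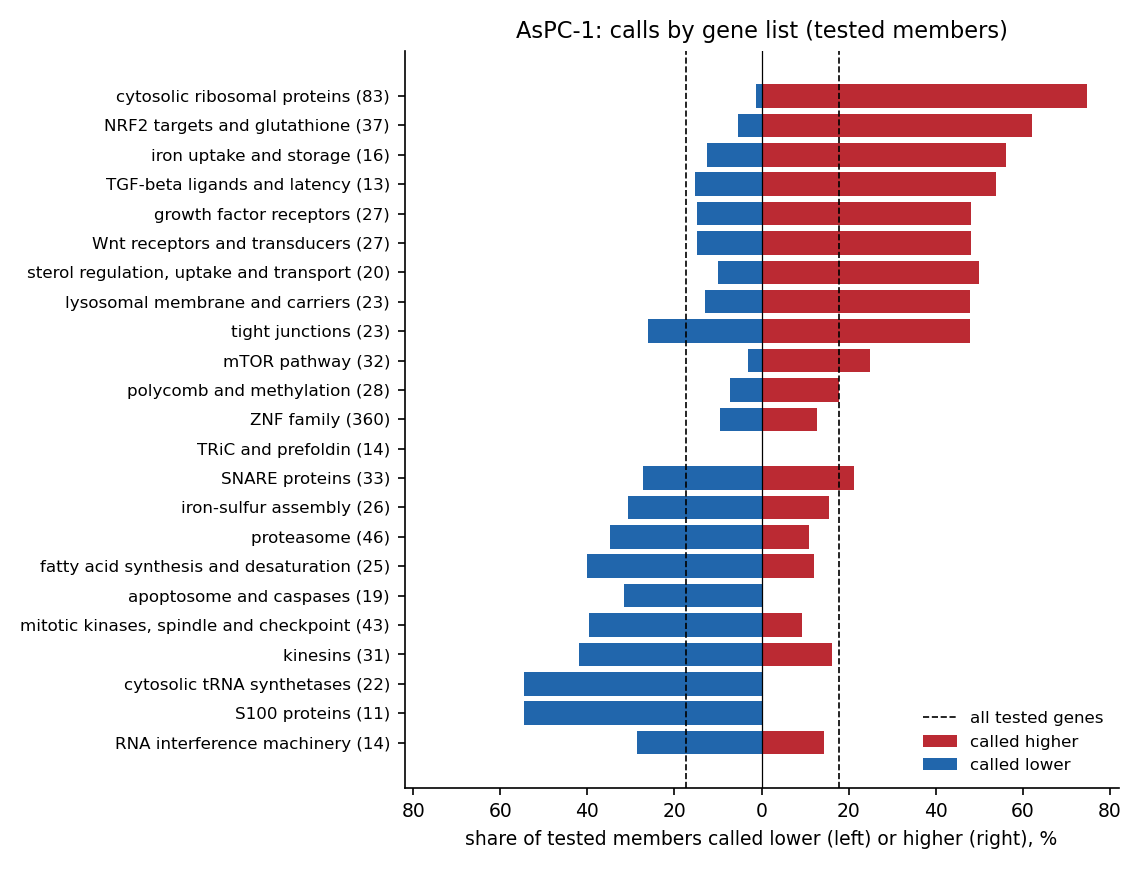
Share of tested members called lower (left, blue) or higher (right, red) in 23 gene lists, in percent, with the number tested in brackets; dashed lines mark the shares over all tested genes, 17.4% lower and 17.9% higher. Ribosomal proteins and NRF2 targets reach furthest to the right, tRNA synthetases and S100 proteins furthest to the left, and TRiC and prefoldin have 0 calls.

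Cytosolic ribosomal proteins, the protein part of the ribosome, rose together by small amounts, 62 of 83 (74.7%), with a median log2 fold change of 0.13 and RPS29 highest at 0.43. Of these rises, 1 passed the edgeR test beyond 1.2-fold. Without control 1 the count of rises was 40. The 1 fall (2 without control 2) was RPL7L1, a nucleolar relative that is not a constituent of the mature ribosome. Many pseudogenes resemble these genes, and annotated processed pseudogenes had 24 rises and 15 falls among 295, below the shares over all genes. Cytosolic tRNA synthetases, which load amino acids onto tRNA, went down: 12 of 22 fell (54.5%, against 17.4% of all genes) and 0 rose, with a median of -0.12. WARS fell from 74.2 and 69.4 to 51.1, 55.3 and 55.2 CPM and CARS from 74.1 and 71.6 to 56.3, 58.1 and 57.2 CPM. Only 1 of these falls was in a gene with the word, and 1 passed the edgeR test beyond 1.2-fold. The count ranged from 9 to 12 when 1 library was left out. ATF4, the factor that drives many of these genes in amino acid shortage, has other targets that split, with 7 rises, CEBPB (0.94) first, and 5 falls among 23. Without control 1 these were 4 rises and 3 falls, and without control 2 there were 4 rises.

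The proteins that bind and silence the cap-binding factor eIF4E rose. EIF4EBP2, one of them, rose from 145 and 149 to 303, 290.0 and 297 CPM and EIF4EBP1 from 44.8 and 45.3 to 66.9, 69.1 and 68.5 CPM. LARP1, a repressor of ribosomal protein mRNAs, rose from 301 and 312 to 501, 517 and 488 CPM. EIF4E itself fell by 0.32 on the log2 scale, a call lost without control 1 (edgeR adjusted p = 0.0545). BZW1 and BZW2, a pair of mimics of the initiation factor eIF5, fell from 272 and 269 to 118, 128 and 133 CPM and from 194 and 205 to 75.5, 78.8 and 77.2 CPM, and both carry the word. The list of the mTOR pathway, the kinase that inactivates the EIF4EBP proteins, gave 8 rises and 1 fall, MTOR (-0.24), among 32. Without control 1 it gave 5 rises and 0 falls (MTOR adjusted p = 0.0656 by edgeR).

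Genes of RNA handling gave calls in both directions. Export factors counted 7 falls, ALYREF and the cap-binding subunit NCBP1 (-0.49) deepest, and 3 rises among 28, with 4 falls without control 1. Among hnRNP proteins 12 of 36 fell and 9 rose (5 without control 2), with HNRNPF going from 415 and 419.9 to 261, 277 and 285 CPM. HNRNPA1P48, a copy of HNRNPA1 counted in this list, followed it at -0.87. NUDT21, a factor that sets where transcripts are cleaved and polyadenylated, fell by 0.54 and carries the word. In the RNA interference machinery, which siRNA itself uses, AGO1 fell from 38.5 and 41.8 to 20.7, 22.4 and 20.2 CPM and AGO2 from 146 and 141 to 114, 112 and 105 CPM, while DICER1 rose from 87.6 and 92.2 to 146, 145 and 135 CPM. PRKRA, a partner of Dicer, fell by 0.85 and has no copy of the word, unlike AGO1, AGO2 and DICER1. Long intergenic RNAs as an annotated class had 61 falls (16.4%, against 17.4% of all genes) and 18 rises (4.84%, against 17.9%) among 372.

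Genes of cell division were more often lower than higher. Mitotic kinases, spindle and checkpoint genes counted 17 falls (39.5%) and 4 rises among 43, with a median log2 fold change of -0.13. CDCA8, or borealin, a subunit of the complex that carries Aurora B, fell from 69.3 and 70.6 to 29.5, 31 and 29.4 CPM. MYBL2, a transcription factor of mitotic genes, fell from 252 and 259 to 141, 146 and 154 CPM, and the checkpoint protein MAD2L1 from 71.2 and 75.9 to 42.7, 43.1 and 45.3 CPM. These 3 deepest falls of the list carry the word, with 1 other of the falls, and 13 of the 17 falls lack it. The rises were ASPM (0.49), MKI67 (0.30), ANLN (0.22) and KNL1 (0.23), the last lost without control 1 (edgeR adjusted p = 0.0928). Kinesins, motors of spindle and transport, had 13 falls, KIF23 (-0.48) and KIF11 (-0.42) deepest, and 5 rises among 31.

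DNA replication genes had 14 falls and 6 rises among 54. POLA1, the catalytic subunit of DNA polymerase alpha, fell from 36.8 and 37.8 to 18.3, 16.2 and 16.9 CPM and ORC1, which marks origins, from 21.1 and 27.3 to 10.7, 11.8 and 12 CPM. CDKN1A, the p21 inhibitor of cyclin-dependent kinases, fell from 22.9 and 17.7 to 10.1, 10.7 and 9.52 CPM while CDKN1B, or p27, rose by 0.42. Excision and mismatch repair had 5 falls (16.7%, against 17.4% of all genes) and 1 rise (3.33%, against 17.9%), PARP1 (0.23), among 30. Without siRNA library 2 there were 2 rises. TDG (-0.72), APEX1 (-0.69), NEIL3 (-0.68), POLB (-0.65) and OGG1 (-0.51) all act in base excision repair. Of these 5 falls 4 carry the word, all but TDG, and of the 30 tested genes 9 do. Base excision genes were not counted apart from the rest of the list, so no trend of that pathway is read from these falls. Of the apoptosome and caspase list 6 of 19 fell and 0 rose. DESeq2 likewise called 0 rises there and in the alpha integrin, S100 and synthetase lists, where edgeR gave 0, 2, 0 and 0 rises at an unadjusted p under 0.05; the alpha integrin list had 1 rise in edgeR without control 2. APAF1, the scaffold of the apoptosome, fell from 61.7 and 61.7 to 24.9, 23 and 28.5 CPM, and its partner cytochrome c, CYCS, by 0.45.

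Sterol genes gave more rises than falls and fatty acid genes more falls than rises. SREBF2 (0.33), a transcription factor that turns on genes of cholesterol supply, rose. Of 20 genes of sterol regulation, uptake and transport 10 rose and 2 fell, with NPC2 deepest. The rises were 5 without control 1. Cholesterol synthesis had 9 rises, TM7SF2 (0.60) first, and 4 falls among 20. CYP51A1, the lanosterol demethylase, fell from 13.1 and 15.3 to 7.10, 6.56 and 5.84 CPM. Fatty acid synthesis and desaturation had 10 falls and 3 rises among 25. The falls included AGPAT2 (-0.55) and ACSL4 (-0.53), and ACLY, which makes cytosolic acetyl-CoA, rose from 119 and 124 to 194, 194 and 191 CPM. The falls were 5 without control 2.

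**Figure D5:**
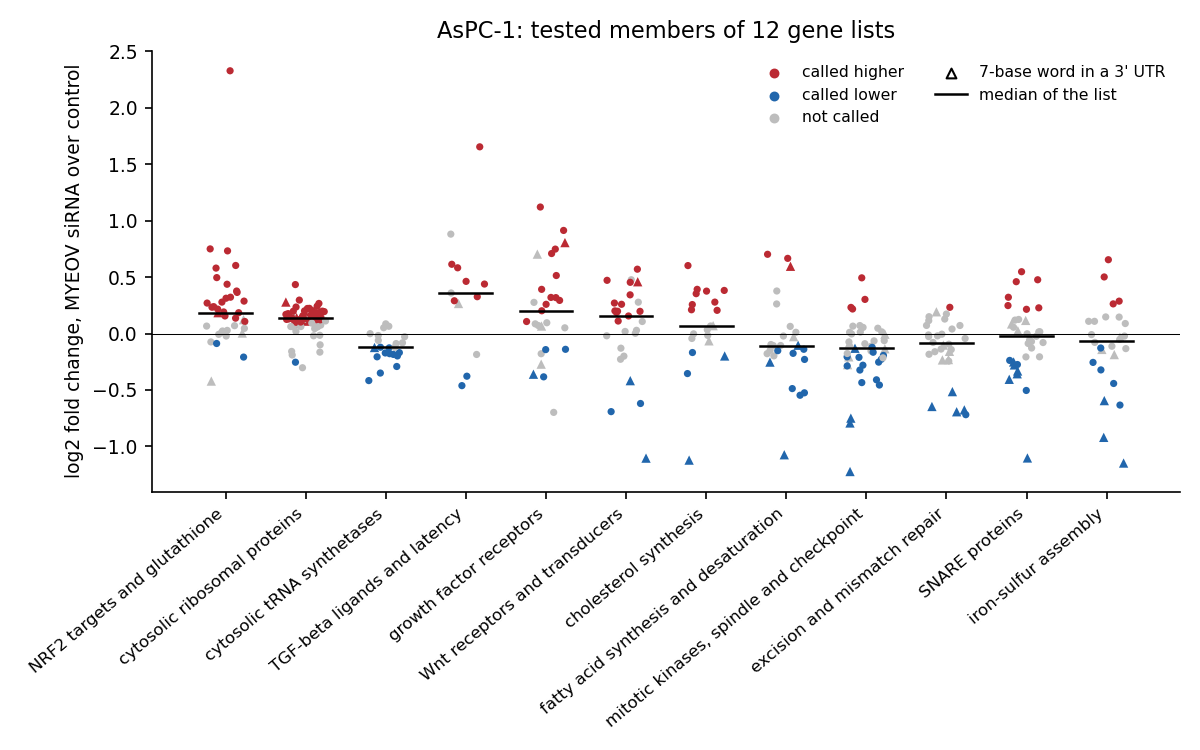
Log2 fold change (MYEOV siRNA over control) of every tested member of 12 gene lists; red and blue mark members called higher and lower, grey those not called, triangles members with the 7-base word in a 3' UTR, and bars list medians. Ribosomal proteins form a tight band with a median of 0.13, while the 3 deepest falls of the mitotic list are triangles.

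Lysosomal membrane proteins and carriers rose in 11 of 23 cases (47.8%) and fell in 3, NPC2, SCARB2 (-0.42) and LAMP1 (-0.26). The rises, such as LAMP2 (0.25) and the sialic acid carrier SLC17A5 (0.41), were no larger than 0.41, 0 of them passed the edgeR test beyond 1.2-fold, and 6 were called without control 2. ATP6V1G1, a subunit of the proton pump that acidifies the lysosome, fell from 42 and 43.6 to 23.7, 24.7 and 25.8 CPM. Retromer, ESCRT and sorting nexin genes, which sort cargo at endosomes, had 19 falls (24.7%) and 13 rises (16.9%) among 77. Of the falls, 8 were in carriers of the word. DESeq2 called 13 falls and 8 rises here, and 3 falls and 2 rises passed the edgeR test beyond 1.2-fold. EPS15, an adaptor of clathrin-coated pits, fell from 57.9 and 60.0 to 35.3, 35.8 and 40.1 CPM, the only fall among 27 clathrin and adaptor genes, of which 8 rose (5 without control 1). SNARE proteins, which fuse membranes, had 9 falls and 7 rises among 33. STX2, a plasma membrane syntaxin, fell from 39.1 and 33.5 to 16.1, 16.7 and 18.1 CPM, and 6 of the 9 falls were in carriers of the word. In the coats of secretory vesicles ARCN1, the delta subunit of COPI, fell from 242 and 247 to 129, 135 and 129.8 CPM, with no copy of the word. SEC61A1, the pore of the endoplasmic reticulum through which new secretory proteins pass, fell from 249 and 266 to 124, 129 and 126 CPM, and XBP1, a factor of the unfolded protein response, from 78.7 and 76.5 to 53.1, 52.1 and 56.7 CPM. CREB3L1, a membrane-tethered transcription factor of that compartment, rose from 14.4 and 14.8 to 28, 32.9 and 31.8 CPM.

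Proteasome genes had 16 falls (34.8%) and 5 rises among 46, most of them small. PSMD5 fell deepest, from 70.4 and 69.4 to 47.1, 47.7 and 47.4 CPM. DESeq2 called 11 falls and 2 rises of the proteasome list, and 3 falls and 0 rises passed the edgeR test beyond 1.2-fold. Cullin ligases and the COP9 signalosome that resets them had 9 falls, led by COPS2 (-1.06), and 5 rises among 39. For this list DESeq2 called 9 falls and 2 rises, and 2 falls and 0 rises passed the edgeR test beyond 1.2-fold. Of the 14 genes of TRiC and prefoldin, which fold actin and tubulin, 0 were called by edgeR or DESeq2, and 1 had an unadjusted p under 0.05 in edgeR. Mitochondrial ribosomal proteins had 9 rises and 7 falls among 77, below the shares over all genes, with MRPL58 (-1.05) and MRPS10 (-0.71) deepest. Without control 1 these were 5 and 4, and without control 2 there were 5 rises. ZNF genes, a large class of zinc finger factors, gave 46 rises and 34 falls among 360, also below those shares. Leaving out control 1 gave 29 and 21, and leaving out control 2 gave 29 and 22. Interferon-stimulated genes, which foreign RNA can switch on, gave 2 rises, ISG15 (0.57) and ISG20 (0.55), and 7 falls, none deeper than IFITM2 (-0.39), among 31. Without control 1, 2 of those falls were called.

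The last question was whether the largest changes of AsPC-1 were matched in PANC-1, the other pancreatic cancer line of the series, given siRNA against MYEOV (3 siRNA and 3 control libraries). The difference between the responses was tested for 20 genes, the 10 largest rises and 10 largest falls, in 1 edgeR fit over all 4 groups, which called 4.76% of 15748 genes. It passed the test for 9 of the 10 rises and 5 of the 10 falls. Choosing the genes by their change in AsPC-1 favours a smaller response in PANC-1, so the direction of these differences, the same in all 14, is a description only. PLAU rose by 1.97 in AsPC-1 and by 0.29 in PANC-1, and TGFB2 by 1.65 against a PANC-1 value of -0.02 that was not called. MSN fell by 1.91 in AsPC-1 and by 0.64 in PANC-1, and MYEOV by 1.48 and 0.88. MYEOV was not among the 20, but its response differed too (by 0.59, SE 0.10, edgeR interaction test adjusted p = 0.0018). What its smaller fall in PANC-1 contributes to the other differences was not tested. Among the 10 falls, 9 were called lower in PANC-1 as well, all of them carriers of the word, and LUM was too low there to test on its own. Of the 10 rises, 2 were called in PANC-1, PLAU and SPNS2. CA9 was also too low in PANC-1 to test on that line alone.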

How the data were processed

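Poly(A) RNA-seq was done on 5 AsPC-1 libraries (12127194 to 14456544 counts on genes). The submitters' processing notes name HISAT2, HTSeq and hg19, without versions; no strand setting is stated. The deposited files hold raw counts per gene, with no normalization by the authors, and all 58735 Ensembl IDs were matched to GENCODE 29. Positions, 3' UTRs and the sites of the word come from that annotation of GRCh38, whereas the counts were made on hg19.

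Counts were analysed in edgeR 4.0.16 (R 4.3.3): genes with a CPM of 1 or more in at least 2 of the 5 libraries, TMM scaling, and the quasi-likelihood test fitted on AsPC-1 alone, two-sided, with Benjamini-Hochberg adjustment over 13527 genes and a threshold of 0.05. Standard errors are the log2 fold change divided by the square root of F. CPM values use TMM library sizes. The difference between lines was an interaction in 1 edgeR fit over the 4 groups. The steps were tested on simulated data. The settings tried instead were scaling by RLE or upper quartile, no filter or one of 5 CPM, DESeq2 1.42.0, limma-voom 3.58.1, a test beyond 1.2-fold, 1 fit over all groups, a replicate block, each library left out, and genes without the word.

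The gene lists, the 7-base word and the members named were chosen with earlier results of these data known. Genes were named by rule: MYEOV; the 12 largest rises and falls at a mean log2 CPM of at least 3 without overlap between groups; the 6 largest CPM gains and losses of at least 1.5-fold; and in each role of a list up to 2 rises and 2 falls at a mean log2 CPM of at least 2. Outside this rule, and chosen after their values were seen, are AGO2, ANLN, ATF4, BMP4, BRAF, CCND1, CDH1, CTTN, EGFR, FGF18, FTH1, GCLC, GSN, HNF4A, HNRNPF, IL6ST, KEAP1, KNL1, LAMB3, LAMP1, LAMP2, LIMK1, MAD2L1, NEIL3, NFE2L2, NKD1, NOTCH2, NQO1, NRAS, OGG1, PLAUR, POLB, RNF43, SOS1, SREBF2, TGFBR1 and TXNRD1. Some genes that the rule names are not reported here.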

Additional observations from a re-analysis of the deposited data

Results flagged for a closer look

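The response to MYEOV siRNA differed between the lines, by the edgeR interaction test over all tested genes, for 14 of the 20 genes with the largest changes in AsPC-1; values are the log2 response of PANC-1 minus that of AsPC-1. PLAU differed by -1.69 (SE 0.10; edgeR adjusted p = 3.84e-09) and TGFB2 by -1.69 (SE 0.15; edgeR adjusted p = 6.24e-07). The kinase SIK1 gave -2.25 (SE 0.53; edgeR adjusted p = 0.0156), with the siRNA libraries of AsPC-1 spread from 5.74 to 20.0 CPM; its adjusted p was 0.131 without control 1, 0.0534 without control 2 and 0.0512 when a replicate block was fitted. RAB5IF, which takes part in assembling the respiratory chain, gave -1.43, and NDUFAF8, an assembly factor of complex I, -1.31. RNF11 gave -1.09, LONRF2 -1.10, MROH6 -0.88 and SPNS2, a sphingolipid exporter, -0.82. Among the falls, MSN differed by 1.26 (SE 0.08; edgeR adjusted p = 3.84e-09), ARHGAP1 by 0.86, EMP1 by 0.56, DHTKD1 by 0.53 and FAM107B by 0.38. FAM107B lost the call without control 1 (edgeR adjusted p = 0.0956). MYEOV, which was not among the 20, differed by 0.59 in the same test (SE 0.10, edgeR adjusted p = 0.0018). The 20 genes were chosen for their change in AsPC-1, which favours a smaller response in PANC-1, so nothing is read from the direction of their differences.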

How the results depend on the processing

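Of 436 named genes, 346 kept their direction and call under every alternative except the test beyond 1.2-fold, and 232 under that test as well; none reversed. DESeq2 called 3162 genes (1509 lower), and the test beyond 1.2-fold 1228 (552 higher, 676 lower), with 0 of their calls opposite in direction to those reported. RLE and upper-quartile scaling changed no call among the named genes. Leaving out 1 library gave 3382 to 4412 calls, 1714 to 2240 higher and 1668 to 2172 lower, and 12 to 14 of the 20 differences between lines. Of the calls among the named genes, 60 were lost with DESeq2 and 200 with the test beyond 1.2-fold; among the settings that leave out 1 library, most were lost without control 1 (54) or control 2 (48), which leaves a single control.

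The pairing of replicate numbers was not shown by the data: same-numbered controls and siRNA libraries had correlations of deviations of -0.030 and 0.012. Fitting a replicate block, 4646 genes were called (2371 higher, 2275 lower), and 13 of the 20 differences between lines.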

Other observations

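Solute carriers move metabolites and ions across membranes. Among 201 tested, 48 rose (23.9%, against 17.9% of all genes) and 39 fell (19.4%, against 17.4%). Of these, 16 rises and 12 falls passed the edgeR test beyond 1.2-fold. The zinc importer SLC39A6 rose from 49.6 and 48.3 to 101, 98.2 and 92.9 CPM, while SLC25A17, a peroxisomal carrier, went from 20.9 and 21.8 to 9.52, 10.4 and 11.1 CPM and SLC25A13, the mitochondrial aspartate-glutamate carrier, from 281 and 268 to 156, 162 and 162 CPM. TIMM17A, part of the pore that imports proteins into mitochondria, fell from 58.2 and 56.6 to 28.5, 31.2 and 32.2 CPM, and NIP7, a ribosome assembly factor, from 53.9 and 58.1 to 25.4, 25.9 and 29.4 CPM. In each of these genes the siRNA libraries and the controls did not overlap, as in most called genes.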
